A study of Mus musculus with 10 samples.

Results

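The TNF superfamily ligands and receptors were described in the lung DNA methylomes of 3 saline-treated, 3 OVA-induced and 4 DSE-treated mice. The 36 members, 13 ligands and 23 receptors, were taken by gene name, and every 1000 bp window that overlapped a member's RefSeq gene span or its 5 kb flanks on GRCm38 was assigned to it. This gave 483 of the 446336 windows of the table, 91 at ligands and 392 at receptors, for 35 of the 36 members. No window lay at Tnfsf18. Of the 483 windows, 18 were shared by neighbouring members and 199 also lay within 5 kb of another gene. All mice were female BALB/c mice of 8 weeks. The OVA-induced mice were sensitized by intraperitoneal injection of 50 µg ovalbumin in alum and challenged intranasally with 25 µg on 4 days, a model of allergic asthma. The DSE-treated mice received the same ovalbumin schedule and, in addition, 200 mg/kg of an ethanol extract of Descurainia sophia seeds by mouth on 7 days, and the labels call this group herbal treatment. The saline mice received neither ovalbumin nor extract. Each library was made from lung tissue, a mixture of cells, so a change in which cells the lung held and a change of methylation within cells cannot be told apart.

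TNF superfamily ligands are mostly trimeric membrane proteins of leukocytes and stromal cells, and many are also shed in soluble form. Their receptors fall into those with a death domain, such as Tnfrsf1a and Fas, which can start apoptosis, those that recruit TRAF adaptors and activate NF-κB, such as Cd40, Cd27 and Tnfrsf8, and decoys such as the soluble Tnfrsf11b. In allergic airways several ligand and receptor pairs act as costimulators of T cells and as survival signals of B cells and plasma cells. Methylation of CpGs at promoters is generally low at active genes, and the transition from low to high methylation at the edge of a CpG island often differs between cell types.

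The sequences of promoters and windows at or near larger differences are given first. Each CpG is in capitals, since the CpGs are the positions that bisulfite sequencing reads. The promoters run from 250 bases before to 50 bases after a transcript start and come from the RefSeq promoter table of GRCm38.p6, which held 29 of the 36 members. For 6 members of this table, a window within 1 kb of a transcript start passed the thresholds below, without overlap of the mice. The promoters printed are those of the 4 with the largest differences. A printed promoter need not lie in such a window, and at Tnfrsf14 and Edar it did not. Ltbr and Tnfrsf13b are the others, and Cd70 and Tnfsf12 had no entry. All 4 are printed 5′ to 3′ on the minus strand, which is the strand of these genes.
Tnfrsf14, chr4:154928028-154928327: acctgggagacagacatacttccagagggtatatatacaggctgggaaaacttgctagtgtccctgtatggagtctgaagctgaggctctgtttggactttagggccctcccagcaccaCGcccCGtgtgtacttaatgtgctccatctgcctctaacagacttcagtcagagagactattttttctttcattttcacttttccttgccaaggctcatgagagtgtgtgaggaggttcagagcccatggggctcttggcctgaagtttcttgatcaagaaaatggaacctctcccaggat
Tnfsf15, chr4:63745010-63745309: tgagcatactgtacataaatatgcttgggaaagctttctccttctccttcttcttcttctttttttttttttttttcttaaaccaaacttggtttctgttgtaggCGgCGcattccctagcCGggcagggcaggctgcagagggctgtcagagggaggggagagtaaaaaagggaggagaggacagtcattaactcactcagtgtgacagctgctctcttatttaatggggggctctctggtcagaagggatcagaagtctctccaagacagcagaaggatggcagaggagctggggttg
Cd27, chr6:125236978-125237277: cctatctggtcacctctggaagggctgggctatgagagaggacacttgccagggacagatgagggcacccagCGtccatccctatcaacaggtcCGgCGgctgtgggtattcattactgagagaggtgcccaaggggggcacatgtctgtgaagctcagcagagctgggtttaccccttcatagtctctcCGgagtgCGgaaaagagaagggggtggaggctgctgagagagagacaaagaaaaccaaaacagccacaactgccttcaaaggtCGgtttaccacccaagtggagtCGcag
Edar, chr10:58675647-58675946: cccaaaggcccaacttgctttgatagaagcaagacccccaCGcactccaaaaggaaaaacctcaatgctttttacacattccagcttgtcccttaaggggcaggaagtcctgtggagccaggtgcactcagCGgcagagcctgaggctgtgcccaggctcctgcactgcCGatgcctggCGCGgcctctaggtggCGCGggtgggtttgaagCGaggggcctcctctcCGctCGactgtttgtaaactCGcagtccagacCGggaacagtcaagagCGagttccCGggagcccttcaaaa
The promoters of Tnfrsf14, Tnfsf15 and Cd27 held 2, 3 and 7 CpGs, and that of Edar held 14. Across the 32851 promoters of the table the median was 7 CpGs, and 85.9%, 76.7%, 52.1% and 36.3% of promoters held at least as many CpGs as Tnfrsf14, Tnfsf15, Cd27 and Edar, respectively.

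For 5 windows with large differences, the stretch of at most 200 bases that held the most CpGs is printed from the GRCm38.p6 genome, plus strand. The whole windows of Tnfrsf14, Tnfrsf8, Tnfrsf21, Cd70 and Tnfsf15 held 14, 15, 11, 13 and 12 CpGs in this reference, which is C57BL/6J, so single CpGs can differ in BALB/c mice.
Tnfrsf14 window, chr4:154929099-154929279: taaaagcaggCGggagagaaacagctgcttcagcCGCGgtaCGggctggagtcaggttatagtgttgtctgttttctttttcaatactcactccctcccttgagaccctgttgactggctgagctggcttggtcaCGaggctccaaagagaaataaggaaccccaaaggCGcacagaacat
Tnfrsf8 window, chr4:145299001-145299171: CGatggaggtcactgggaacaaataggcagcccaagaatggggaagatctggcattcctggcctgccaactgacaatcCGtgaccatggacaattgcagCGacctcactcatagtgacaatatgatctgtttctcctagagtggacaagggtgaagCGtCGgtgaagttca
Tnfrsf21 window, chr17:43036513-43036638: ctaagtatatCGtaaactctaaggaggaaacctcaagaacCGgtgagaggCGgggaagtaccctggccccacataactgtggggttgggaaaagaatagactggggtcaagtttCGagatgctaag
Cd70 window, chr17:57148788-57148976: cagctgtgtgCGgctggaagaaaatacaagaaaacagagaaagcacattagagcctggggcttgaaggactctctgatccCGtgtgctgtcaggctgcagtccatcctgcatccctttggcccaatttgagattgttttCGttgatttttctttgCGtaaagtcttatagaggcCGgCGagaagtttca
Tnfsf15 window, chr4:63744800-63744985: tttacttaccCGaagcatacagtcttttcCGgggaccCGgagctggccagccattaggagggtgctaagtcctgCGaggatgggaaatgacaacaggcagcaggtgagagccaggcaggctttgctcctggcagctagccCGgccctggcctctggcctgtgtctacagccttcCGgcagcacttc
These stretches held 6, 5, 4, 6 and 6 of the CpGs of their windows.

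Methylation was measured by capture bisulfite sequencing, and the level of a window is the percentage of its cytosine calls that were methylated. A mouse was used for a window from 20 calls on, at which the 95% Wilson interval of a level of 50% runs from 29.9% to 70.1%. The median member window had 448 to 602 calls per mouse, and at 526 calls the interval runs from 45.7% to 54.3%. Such intervals hold for counting error alone. Mice of the same group differed by more than that, with a mean chi-square of 2.60 to 3.66 per window and 1 degree of freedom over the pairs of mice in a group. Summed over all windows, each mouse had 306656737 to 410836272 calls, where a call in overlapping windows counts in each of them. A window was called hyper or hypo methylated when the pooled difference reached 10 percentage points at an adjusted p under 0.01 in a likelihood ratio test of the calls, which are the thresholds of the study. This test takes no account of the spread between mice, so 3 readings over mice stand beside it: limma on the M-value, log2 of methylated over unmethylated calls, whether the ranges of the groups overlapped, and a gene test with limma on the mean M-value of a locus. A locus here is a gene span with its flanks, and its level is the mean over the windows that every mouse covered.

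In saline mice the mean over ligand loci was 34.9% ± 1.02 (SD, n = 3) and the mean over receptor loci was 43.3% ± 0.332, against 45.5% ± 0.255 over the 28830 genes of the gene test. The lowest ligand loci were Cd70, a costimulator of lymphocytes, at 13.1% ± 0.491 and Tnfsf13b, the B cell survival factor BAFF, at 13.2% ± 2.72, whose mice overlapped. The highest was Fasl, the death ligand of cytotoxic lymphocytes, at 73.7% ± 2.23. Among receptors, Tnfrsf11b, the decoy for RANK ligand, was lowest at 17.9% ± 3.43. Tnfrsf8, the lymphocyte activation receptor CD30, was highest at 61.3% ± 1.08, and the neighbouring Tnfrsf1b, the second TNF receptor, stood at 60.3% ± 0.715. The levels of Tnfrsf8 and Tnfrsf1b, 61.6%, 62.1% and 60.1% against 59.97%, 59.7% and 61.1%, overlapped. These levels depend on which windows of a locus the capture covered, and Cd70, Tnfsf13b, Fasl and Tnfrsf11b had 3 windows covered in every mouse.

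**Figure D1:**
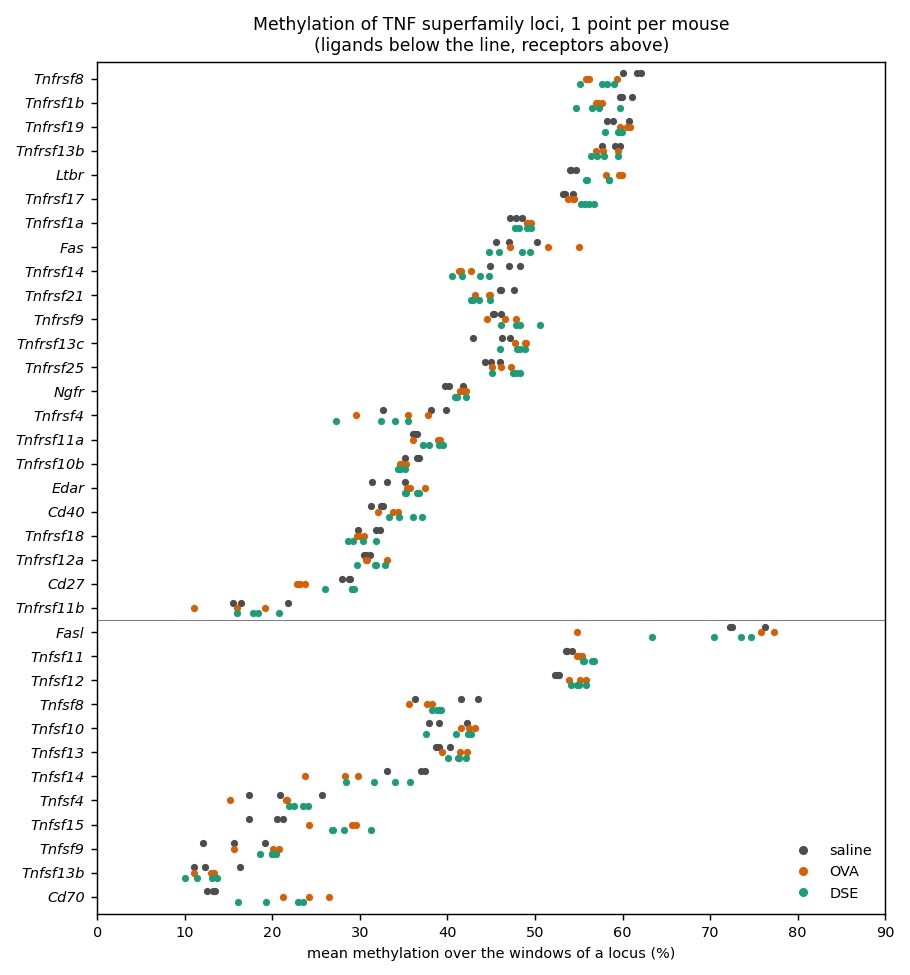
The plot shows 1 point per mouse for each of the 35 loci with a window, with the mean methylation of the locus in percent on the horizontal axis and the loci ordered by their saline level within ligands and receptors. Saline levels run from 13.1% at Cd70 to 73.7% at Fasl, and at Cd70 and Tnfsf15 the OVA-induced mice sit above the saline mice, whereas at Tnfsf14 they sit below.

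Promoters were mostly low, with 7 of 8 ligand and 16 of 20 receptor promoter windows under 20% in saline mice. For 28 members a window lay at the gene start, and in saline mice 8 ligand promoter windows averaged 7.12% ± 1.24 and 20 receptor promoter windows 14.9% ± 0.628 (n = 3). The 5 lowest were those of Tnfsf9 (1.03% ± 0.223), a costimulator of T cells, Tnfrsf21 (1.03% ± 0.704), a death receptor, Tnfrsf10b (1.05% ± 0.322), the TRAIL receptor, Tnfrsf1a (1.10% ± 0.390), the first TNF receptor, and Tnfrsf13c (1.28% ± 0.0551), the BAFF receptor. The 5 highest were Cd27 (76.1% ± 2.11) and Tnfrsf13b (74.5% ± 1.79), both receptors of lymphocytes, far above Tnfrsf25 (23.2% ± 1.99), its ligand Tnfsf15 (21.8% ± 5.03) and Tnfrsf11b (21.5% ± 5.78). In OVA-induced mice the ligand promoter windows averaged 10.5% ± 1.18 and in DSE-treated mice 10.8% ± 1.34 (n = 4), while the receptor promoter windows averaged 13.7% ± 0.493 and 14.3% ± 0.292. The lowest OVA-induced mouse had 9.11% over the ligand promoters and the highest saline mouse 8.11%, so these groups did not overlap. Few members carried this mean. The promoter windows of Tnfsf15 went from 21.8% to 35.8% and of Cd70 from 8.26% to 14.997%, whereas those of Tnfsf9, Tnfsf10, Tnfsf11 and Tnfsf13b moved by under 1 point, and the median over the 8 ligands was 4.93% in saline and 6.30% in OVA-induced mice.

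Levels followed CpG content over the 483 member windows, with a Spearman correlation of -0.469 and a Pearson correlation of -0.502 between the number of CpGs and the saline level, as a description across windows that share mice and often sequence. The 94 windows with at most 9 CpGs had a median saline level of 68.7% and the 22 windows with 50 or more CpGs one of 2.72%. By position, the 127 windows within 1 kb of a transcript start had a median of 15.2%, the 92 other exonic windows one of 57.6% and the 138 intronic windows one of 63.6%. The ligand and receptor windows within 1 kb of a transcript start had medians of 9.39% and 16.1%.

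OVA-induced mice were first compared with saline mice, which asks what the asthma model did to methylation at these genes. Of 478 member windows tested, 17 were hyper methylated (3.56%) and 20 were hypo methylated (4.18%), in 14 and 12 separate regions. Over the whole table the shares were 4.75% and 2.56%. The hyper methylated count came to 10 without saline mouse 1 and to 24 without OVA mouse 1, while the hypo methylated count stayed at 17 to 23 whichever mouse was left out. Ligand windows were more often higher, with 8 hyper and 1 hypo methylated of 91 (8.79% and 1.10%). The 8 lay at 5 genes, and these shares hold for the listed ligands only. At other superfamily genes outside the members, among them Tnf and Ltb, 0 of 99 windows were higher and 16 lower, as given below. Receptor windows were more often lower, with 9 hyper and 19 hypo methylated of 387 (2.33% and 4.91%). In 35 of these 37 windows every mouse was covered and no saline mouse fell within the range of the OVA-induced mice. The 37 were picked by their difference in the same mice, so separate ranges follow largely from that choice. Over all 472 member windows covered in every mouse, past the thresholds or not, the ranges were separate in 153 (32.4%), against 27% over the table. The median difference was 0.351 percentage points over the members, 0.726 over ligands and 0.254 over receptors, against 0.732 over all windows. Limma with these 2 groups called 0% of the table's windows at an adjusted p of 0.05 and 0 member windows, although 112 member windows had an unadjusted p under 0.05. The test with a scale factor for overdispersion also called 0, with 91 at an unadjusted p under 0.05. Limma with all 3 groups, a fit chosen after the data were seen, gave 25 member windows an adjusted p under 0.05. For this fit and for the unadjusted p-values no share over the whole table is given, so these counts cannot be set against it.

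**Figure D2:**
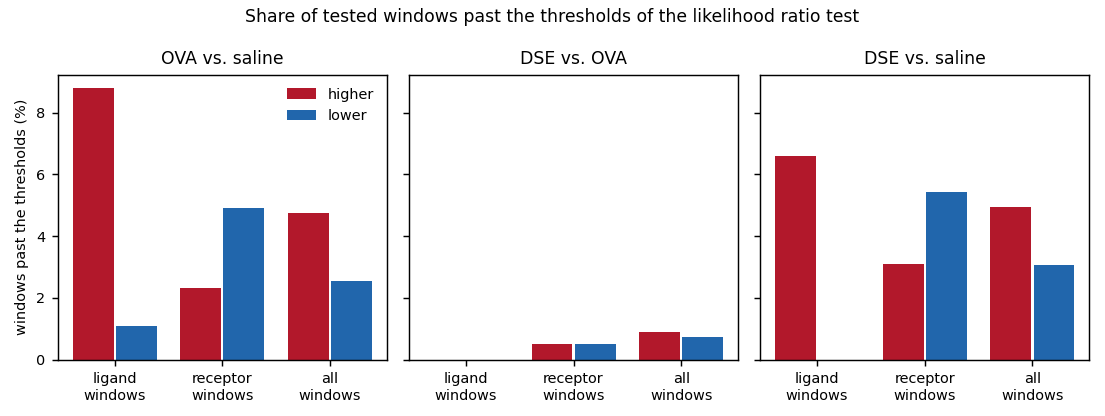
The bars show the share of tested windows, in percent, past the thresholds of the likelihood ratio test in each of the 3 comparisons, for ligand windows, receptor windows and the whole table, with hyper methylated windows in red and hypo methylated windows in blue. In OVA against saline mice 8.79% of ligand windows were higher and 4.91% of receptor windows were lower, against 4.75% and 2.56% of all windows, and in DSE against OVA mice every share was below 1%.

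Ligand genes with hyper methylated windows were Tnfsf9, Tnfsf10, Tnfsf11, Tnfsf15 and Cd70, and the single ligand gene with a hypo methylated window was Tnfsf14. Cd70, the ligand of Cd27 on activated lymphocytes and dendritic cells, showed the largest difference by the gene test. Over its 3 covered windows, all at the promoter, the locus had 13.5%, 12.5% and 13.2% in the saline mice, 24.1%, 21.2% and 26.5% in the OVA-induced mice and 16.0%, 23.5%, 22.9% and 19.2% in the DSE-treated mice. All saline mice lay below all OVA-induced mice. The M-value differed by 1.07 ± 0.19 (log2, SE; adjusted p from limma = 0.0160). Of all genes tested, 4.24% were called higher and 1.61% lower. The most affected Cd70 window lay at chr17:57148001-57149000, 1.3 kb inside the gene beside windows of lower level, with 206 to 431 calls per mouse. The levels were 19.4%, 22.5% and 17.4% in the saline mice, 40.8%, 29.8% and 39.8% in the OVA-induced mice and 27.9%, 35.9%, 36.4% and 29.0% in the DSE-treated mice. The pooled difference of OVA from saline mice was 17.3 percentage points (adjusted p = 1.9e-18 in the likelihood ratio test). In limma the adjusted p was 0.0961 with 2 groups and 0.0311 with 3 groups. A window at the 3′ end of Cd70, chr17:57145001-57146000, which overlaps the gene by only a few bases, had a larger pooled difference of 24.3 points, but it rested on 2 OVA-induced mice (87.0% and 84.0%, against 54.1%, 77.4% and 56.6% in saline mice), since OVA mouse 3 had too few calls. The Cd70 windows also lie within 5 kb of Gm33566.

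Tnfsf15 encodes TL1A, a costimulator of T cells and innate lymphoid cells through the receptor Tnfrsf25. Its locus (chr4:63724600-63745059, minus strand) had 21.2%, 17.4% and 20.5% in the saline mice, 24.2%, 29.6% and 29.1% in the OVA-induced mice and 26.8%, 28.2%, 27.0% and 31.3% in the DSE-treated mice. The gene test gave a difference of 0.58 ± 0.12 (adjusted p from limma = 0.0265). The difference lay on the downstream side of the start. The window chr4:63744001-63745000 had 22.4%, 19.3% and 29.1% in the saline mice, 32.2%, 41.7% and 44.6% in the OVA-induced mice and 35.6%, 39.7%, 38.3% and 47.1% in the DSE-treated mice, a pooled difference of 15.1 points (adjusted p = 1.1e-34). By contrast, the window 1 kb upstream of it, chr4:63745001-63746000, had 19.9%, 15.4% and 13.4% in saline mice and 17.6%, 19.4% and 16.6% in OVA-induced mice, which overlapped. The printed promoter, with its 3 CpGs, lies within this window and also within the overlapping window chr4:63744501-63745500, where the pooled difference was 13.4 points. All these windows lie within 5 kb of Gm42294.

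Tnfsf14 encodes LIGHT, which binds Tnfrsf14 and Ltbr. Its 3 covered windows lay at the 3′ end of the gene, not at the promoter, and gave 37.0%, 37.4% and 33.1% in the saline mice, 28.3%, 29.8% and 23.8% in the OVA-induced mice and 31.6%, 34.0%, 35.7% and 28.4% in the DSE-treated mice. Every OVA-induced mouse was below every saline mouse, and the gene test gave -0.59 ± 0.15 (adjusted p from limma = 0.0479). The genes Tnfsf9, Cd70 and Tnfsf14 are neighbours on chromosome 17, with spans at chr17:57105287-57107758, chr17:57145997-57149777 and chr17:57189474-57194181, with Cd70 higher and Tnfsf14 lower. Tnfsf9 had 1 hyper methylated window, chr17:57099501-57100500, with 26.3%, 33.9% and 35.5% in saline mice and 36.2%, 48.7% and 45.3% in OVA-induced mice. Its gene test did not pass (0.31 ± 0.21, adjusted p from limma = 0.374).

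Tnfsf11, which encodes RANK ligand, had the largest ligand window difference without overlap among the windows covered in every mouse. The intronic window chr14:78290001-78291000 had 58.1%, 72.7% and 68.3% in the saline mice, 83.7%, 81.6% and 87.8% in the OVA-induced mice and 74.4%, 79.6%, 80.5% and 80.7% in the DSE-treated mice. The pooled difference was 18.3 points, with only 22 to 57 calls per mouse (adjusted p = 0.00613 in the likelihood ratio test). In limma the adjusted p of this window was 0.0964 with 2 groups and 0.0270 with 3 groups. Leaving out saline mouse 1, saline mouse 3, OVA mouse 1 or OVA mouse 3 raised its likelihood ratio p to 0.0656, 0.0143, 0.0127 and 0.0324. Tnfsf10, which encodes TRAIL, had 1 hyper methylated region downstream of the gene, with 45.8%, 52.8% and 52.8% in saline mice and 59.7%, 58.0% and 69.1% in OVA-induced mice. No window of Tnfsf4, Tnfsf8, Tnfsf12, Tnfsf13, Tnfsf13b or Fasl passed the thresholds in this comparison. At Fasl 1 OVA-induced mouse stood apart, with a locus level of 54.8% against 77.3% and 75.9% in the others.

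The 4 loci called by the gene test were sensitive to single mice. Cd70 was lost without saline mouse 2 (adjusted p from limma = 0.0648). Tnfsf15 was lost without saline mouse 2 (0.0925), saline mouse 3 (0.0585), OVA mouse 2 (0.0919) or OVA mouse 3 (0.0922). Tnfsf14 kept its call only without DSE mouse 3 or 4, and without any other mouse had adjusted p-values of 0.0557 to 0.152. The fourth, the receptor Ltbr, was lost without any 1 of the saline mice or without OVA mouse 2 or 3 (0.0822 to 0.127).

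**Figure D3:**
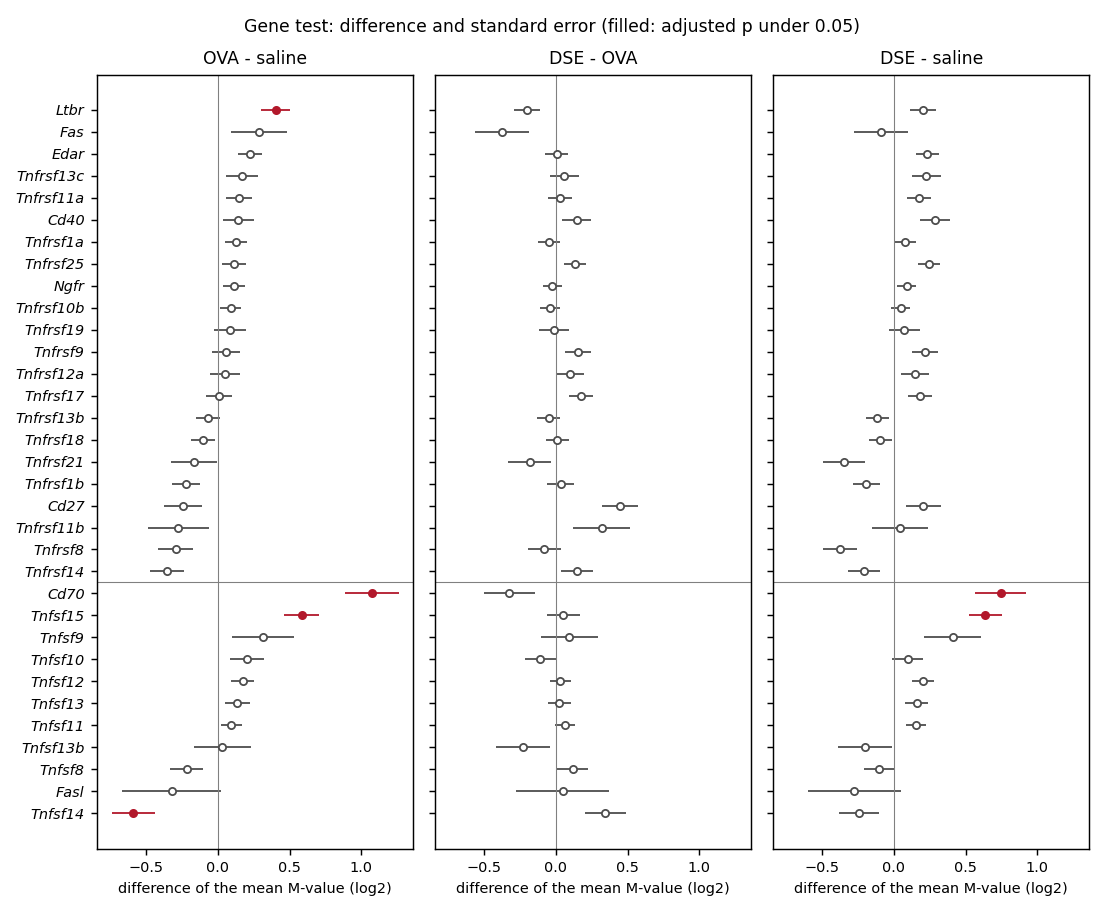
The points show the gene test of the 33 members with at least 3 covered windows, as the difference of the mean M-value (log2) between groups with its standard error, for the 3 comparisons, with ligands below the line, receptors above it and filled points for an adjusted p under 0.05. Cd70 (1.07), Tnfsf15 (0.58) and Ltbr (0.40) were higher and Tnfsf14 (-0.59) was lower in OVA than in saline mice, and no locus passed in DSE against OVA mice.

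Receptor genes with hypo methylated windows in OVA-induced mice were Tnfrsf1a, Tnfrsf1b, Tnfrsf8, Tnfrsf13b, Tnfrsf14, Tnfrsf18, Tnfrsf21 and Cd27, and the windows often lay inside highly methylated gene bodies. Of the 20 hypo methylated member windows 10 lay in introns, all of receptors, and their median saline level was 72.0%, whereas the 17 hyper methylated windows had a median saline level of 31.9%. The former lay at a median distance of 16027 bases from the gene start and the latter at 5287 bases. They held a median of 11.5 and 14 CpGs, respectively. Of all 483 member windows 138 lay in introns, 111 of these at receptors, and no share over the whole table is given. The windows were picked by their difference from these same saline values. A high start of windows that fall and a low start of windows that rise therefore follow in part from that choice.

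Tnfrsf14, the receptor HVEM for LIGHT, showed the largest receptor difference. The window chr4:154929001-154930000, upstream of the gene start and outside the printed promoter, had 67.9%, 83.6% and 66.2% in the saline mice, 56.1%, 50.7% and 51.4% in the OVA-induced mice and 59.7%, 49.4%, 55.8% and 57.8% in the DSE-treated mice. Coverage was 360 to 670 calls per mouse. The pooled difference was -18.9 points (adjusted p = 5.4e-24), and the adjusted p from limma was 0.141 with 2 groups and 0.0579 with 3 groups. Saline mouse 2 stood above the other saline mice, but all saline mice lay above all OVA-induced mice. The gene test of the locus gave -0.36 ± 0.12 (adjusted p from limma = 0.0971).

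Tnfrsf8 had 5 hypo methylated windows in 3 regions, all intronic. The window chr4:145299001-145300000 had 70.0%, 75.5% and 67.6% in the saline mice, 53.9%, 53.0% and 52.6% in the OVA-induced mice and 59.6%, 61.4%, 55.8% and 45.3% in the DSE-treated mice. The pooled difference of OVA from saline mice was -17.7 points (adjusted p = 8.8e-08 in the likelihood ratio test). In limma the adjusted p was 0.0944 with 2 groups and 0.0405 with 3 groups. The neighbouring Tnfrsf1b had 2 hypo methylated windows, and in its window chr4:145222001-145223000 the OVA-induced mice had 60.4%, 60.6% and 60.6% and the saline mice 70.5%, 72.5% and 71.3%. Within each group these values were closer together than the 10.8 points between the groups.

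Tnfrsf21, the death receptor DR6, had 4 consecutive overlapping intronic windows that were all hypo methylated. The lowest of them, chr17:43035501-43036500, had 55.0%, 59.2% and 53.9% in saline mice and 45.5%, 37.6% and 41.2% in OVA-induced mice. Tnfrsf13b, the receptor TACI of B cells and plasma cells, had the window chr11:61143501-61144500 with 69.0%, 69.9% and 68.6% in the saline mice, 60.2%, 52.7% and 47.4% in the OVA-induced mice and 59.6%, 54.0%, 52.3% and 48.0% in the DSE-treated mice. This was a pooled difference of OVA from saline mice of -15.6 points (adjusted p = 4.5e-17 in the likelihood ratio test). In limma the adjusted p was 0.107 with 2 groups and 0.0444 with 3 groups. Tnfrsf18, the receptor GITR of regulatory T cells, had 1 such window downstream of the gene, with 73.1%, 65.5% and 72.2% in saline mice and 59.0%, 56.4% and 53.1% in OVA-induced mice.

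Cd27, the lymphocyte receptor of Cd70, was the member with the most methylated promoter in saline mice. In OVA-induced and DSE-treated mice that of Tnfrsf13b was higher, with 73.9% ± 3.30 and 77.7% ± 2.02 against 60.8% ± 2.13 and 67.6% ± 2.69 for Cd27. The window chr6:125236001-125237000, next to the Cd27 promoter and within 5 kb of Tapbpl, had 78.4%, 74.8% and 75.3% in the saline mice, 61.9%, 61.4% and 58.9% in the OVA-induced mice and 70.5%, 66.8%, 68.1% and 64.6% in the DSE-treated mice. The OVA-induced mice were lowest, the DSE-treated mice lay between and the saline mice were highest, with no overlap between any 2 groups. The pooled difference of OVA from saline mice was -15.5 points (adjusted p = 1.1e-14 in the likelihood ratio test, 0.0944 in limma with 2 groups and 0.0214 with 3 groups). That of DSE from OVA mice was 6.73 points (adjusted p = 0.00379 in the likelihood ratio test and 0.323 in limma with 3 groups), which was under the threshold of 10 points. The printed promoter of Cd27, with its 7 CpGs, lies in the overlapping window chr6:125236501-125237500, which differed by -15.3 points between OVA and saline mice.

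Hyper methylated receptor windows lay at Tnfrsf1a, Tnfrsf10b, Tnfrsf13c, Tnfrsf19, Ltbr and Edar. Ltbr, the lymphotoxin β receptor of stromal and epithelial cells, was the receptor that passed the gene test. Its locus had 54.0%, 54.1% and 54.6% in the saline mice, 58.1%, 59.6% and 59.9% in the OVA-induced mice and 55.8%, 58.5%, 55.9% and 58.4% in the DSE-treated mice, with a difference of 0.40 ± 0.10 in M-value (adjusted p from limma = 0.0408). In the window chr6:125312001-125313000, between low windows at the start and higher windows in the gene body, the levels were 39.3%, 38.5% and 41.4% in the saline mice, 50.2%, 50.7% and 51.7% in the OVA-induced mice and 48.1%, 49.8%, 44.6% and 50.3% in the DSE-treated mice. The gap between the groups was wider than the range of either, and the pooled difference was 11.0 points. Scnn1a lies within 5 kb of most Ltbr windows.

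Upstream of Tnfrsf10b, the TRAIL receptor, the window chr14:69763501-69764500 had 5.77%, 6.68% and 9.56% in the saline mice, 11.5%, 18.2% and 23.3% in the OVA-induced mice and 12.1%, 18.2%, 13.3% and 17.0% in the DSE-treated mice, a difference of OVA from saline mice of 10.0 points. The 3 OVA-induced mice were widely spread, but all were above the saline mice. Downstream of Tnfrsf13c, the BAFF receptor, the window chr15:82217001-82218000 had 32.4%, 32.7% and 30.03% in the saline mice, 40.2%, 45.4% and 42.2% in the OVA-induced mice and 39.6%, 44.9%, 41.1% and 41.3% in the DSE-treated mice (10.8 points). Tnfrsf1a, the first TNF receptor, changed in both directions. Its exonic window chr6:125361501-125362500 rose by 10.4 points and the downstream window chr6:125365001-125366000 fell by 13.8 points. Edar, the ectodysplasin receptor of epithelial appendages, had 31.1%, 18.9% and 20.5% in saline mice and 33.0%, 35.1% and 42.2% in OVA-induced mice at chr10:58674501-58675500 next to its promoter. Tnfrsf19, a receptor of epithelial and neural progenitors, had an intronic window with 84.1%, 76.1% and 78.3% in saline mice and 93.8%, 97.1% and 92.9% in OVA-induced mice.

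DSE-treated mice were then compared with OVA-induced mice, which asks what the extract changed in the asthma model. Of 481 member windows tested, 2 were higher and 2 were lower in DSE-treated mice (0.416% each), against 0.898% and 0.725% over the whole table. All 4 lay at receptors, and none of the 91 ligand windows passed. The ranges of the mice were separate in 40 of 474 windows (8.44%), against 10.2% over the table. Limma with 2 groups called 0.127% of the table's windows and 0 member windows, with 33 member windows at an unadjusted p under 0.05. The test with overdispersion called 0, with 29 at an unadjusted p under 0.05. For neither test is the share of all windows at an unadjusted p given. The gene test called 0 of 33 members by limma, and 0.125% of all genes higher and 0.0139% lower. An unadjusted p under 0.05 in the gene test was found for 2 of the 33 members and 2913 of all 28830 genes. At the loci called in OVA against saline mice, the difference of DSE from OVA mice was -0.33 ± 0.18 for Cd70 (adjusted p from limma = 0.599), 0.35 ± 0.14 for Tnfsf14 (0.439), 0.05 ± 0.12 for Tnfsf15 (0.940) and -0.20 ± 0.09 for Ltbr (0.5002). Both comparisons use the same OVA-induced mice, so these values are not independent of the calls.

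The largest of the 4 differences lay in Cd27. The exonic window chr6:125232501-125233500 had 27.8%, 21.1% and 27.8% in the saline mice, 16.2%, 24.6% and 22.7% in the OVA-induced mice and 41.2%, 43.9%, 43.2% and 27.9% in the DSE-treated mice. DSE mouse 4 was close to the other groups and the other DSE-treated mice were above 41%. The pooled difference of 17.6 points rested on 22 to 72 calls per mouse (adjusted p = 0.00934 in the likelihood ratio test, 0.198 in limma). In an intron of Fas, the death receptor of lymphocytes, the window chr19:34315501-34316500 had 72.0%, 88.0% and 81.0% in the saline mice, 85.4%, 88.2% and 96.6% in the OVA-induced mice and 74.2%, 83.0%, 77.5% and 71.4% in the DSE-treated mice (-13.5 points, adjusted p = 0.00737 in the likelihood ratio test, 0.292 in limma). In an intron of Tnfrsf19, the window chr14:61015501-61016500 had 89.6%, 91.9% and 86.9% in the saline mice, 91.7%, 89.1% and 91.4% in the OVA-induced mice and 72.5%, 82.8%, 77.3% and 84.4% in the DSE-treated mice (-11.7 points, adjusted p = 1.8e-04 in the likelihood ratio test, 0.148 in limma). Here saline and OVA-induced mice overlapped and the DSE-treated mice lay below both.

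Upstream of Tnfrsf9, the T cell costimulator also called CD137, the window chr4:150915501-150916500 had 63.9%, 64.2% and 67.1% in the saline mice, 59.6%, 58.2% and 57.8% in the OVA-induced mice and 73.4%, 69.9%, 70.6% and 64.2% in the DSE-treated mice. The DSE-treated mice lay above the OVA-induced mice by 11.4 points (adjusted p = 9.8e-07 in the likelihood ratio test, 0.210 in limma). The exact permutation test gave 0.0571 in each of the 4 windows, two-sided, which is the smallest p that 3 against 4 mice allow. The ranges of the groups were separate in all 4, which fixes this p in advance, so it adds nothing to the choice of these windows. Without DSE mouse 1 none of the 4 windows passed and 1 other member window did, and without DSE mouse 3 the Tnfrsf19 and Tnfrsf9 windows passed. The Cd27 window missed the adjusted p of 0.01 without any 1 OVA mouse or without DSE mouse 1, 2 or 3 (0.0156 to 0.0723). The Fas window missed it without OVA mouse 2 or 3 or DSE mouse 1, 3 or 4 (0.0103 to 0.117). Without DSE mouse 1 the Tnfrsf19 and Tnfrsf9 windows came to -8.95 and 9.78 points, below the threshold of 10.

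**Figure D4:**
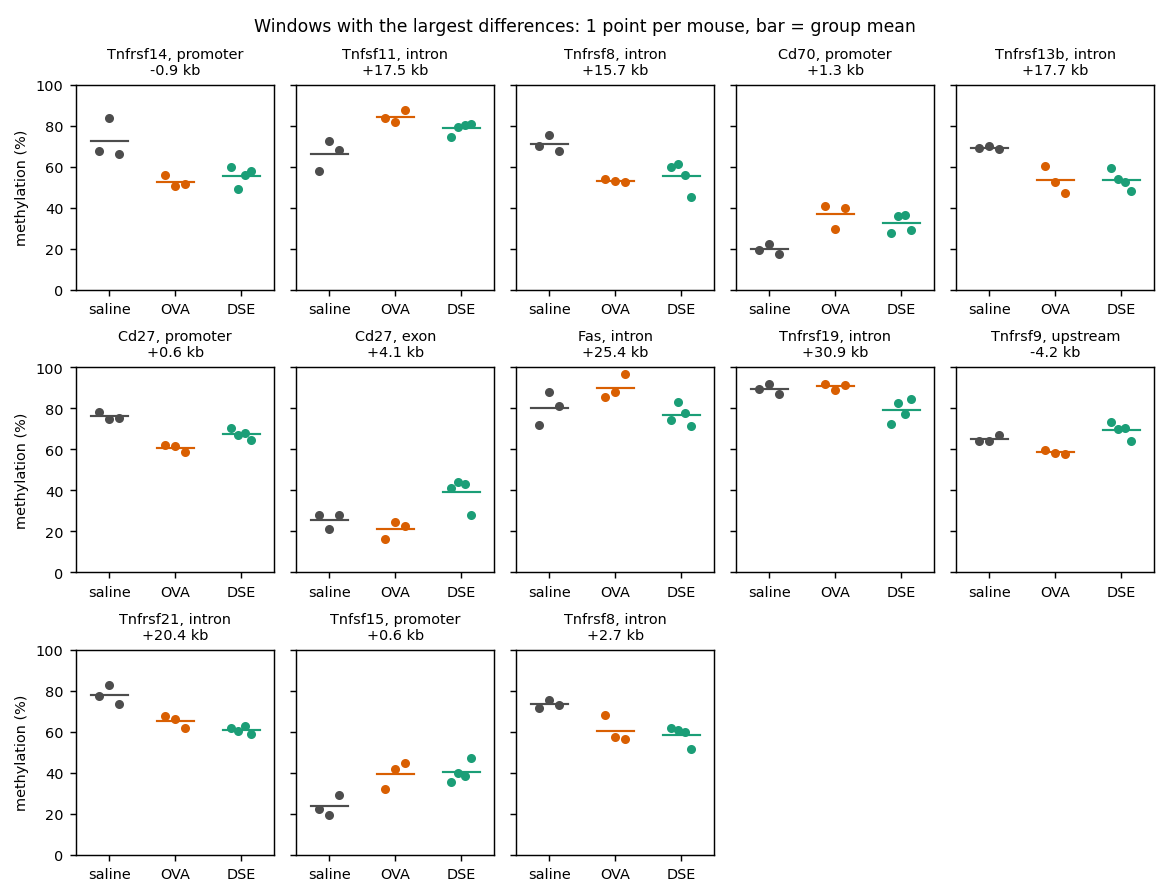
Each panel shows the methylation in percent of 1 window in the 10 mice, 1 point per mouse with a bar at the group mean, for the windows with the largest differences in the 3 comparisons, with the distance of the window centre from the gene start in its title. In the Tnfrsf14, Tnfrsf8 and Tnfrsf13b windows the OVA mice lie below the saline mice by 18.9, 17.7 and 15.6 points, in the Cd70 and Tnfsf11 windows above them by 17.3 and 18.3 points, and in the exonic Cd27 window 3 of 4 DSE mice lie above all others.

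DSE-treated mice were last compared with saline mice, which sets ovalbumin with extract against neither. This comparison shares its saline mice with the first one, so the values of all 3 groups are given side by side. Of 479 member windows tested, 18 were hyper methylated (3.76%) and 21 were hypo methylated (4.38%), against 4.95% and 3.07% over the table. Ligand windows gave 6 hyper and 0 hypo methylated of 91, and receptor windows 12 and 21 of 388. The ranges were separate in 138 of 476 windows (29.0%), against 24.1% over the table. With 4 DSE-treated mice, limma with 2 groups called 30 of 476 member windows at an adjusted p under 0.05 (6.30%), 5 at ligands and 25 at receptors, against 5.26% over the table. The gene test called 2 loci higher, against 10.4% of all genes higher and 2.41% lower. Tnfsf15 differed by 0.64 ± 0.12 (adjusted p from limma = 0.0110) and kept an adjusted p of 0.00855 to 0.0469 whichever mouse was left out. Cd70 differed by 0.75 ± 0.18 (adjusted p from limma = 0.0253) and missed the threshold without any 1 saline mouse or without DSE mouse 2, 3 or 4 (0.0504 to 0.0961).

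Among ligands, the windows past limma's threshold lay at Tnfsf15, Cd70 and Tnfsf12. The Tnfsf15 window given above differed by 16.4 points (adjusted p from limma = 0.0393) and the Cd70 window by 12.4 points (0.0419). Tnfsf12 encodes TWEAK, a ligand of the growth receptor Tnfrsf12a. Its window chr11:69695001-69696000, just inside the gene start, had 25.4%, 19.0% and 23.6% in the saline mice, 30.2%, 28.8% and 37.6% in the OVA-induced mice and 30.7%, 34.3%, 33.7% and 39.4% in the DSE-treated mice, a difference of DSE from saline mice of 11.8 points (adjusted p from limma = 0.0465). Tnfsf13os and Tnfsfm13 lie within 5 kb of it.

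Among receptors, the windows that were lower in DSE-treated mice lay mainly in highly methylated sequence. The Tnfrsf21 window chr17:43036501-43037500 had 77.6%, 82.8% and 73.7% in the saline mice, 67.8%, 66.5% and 61.6% in the OVA-induced mice and 61.7%, 60.3%, 62.8% and 59.0% in the DSE-treated mice, and the DSE-treated mice lay 16.9 points below the saline mice (adjusted p from limma = 0.0265). The Tnfrsf13b window chr11:61143501-61144500 differed by -15.5 points (0.0315). The Tnfrsf8 window chr4:145312001-145313000 had 71.7%, 75.5% and 72.9% in the saline mice, 68.0%, 57.3% and 56.6% in the OVA-induced mice and 61.6%, 61.1%, 59.8% and 51.6% in the DSE-treated mice (-14.5 points, adjusted p from limma = 0.0336).

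A further Tnfrsf8 window, chr4:145276001-145277000, had 74.2%, 78.9% and 70.4% in the saline mice, 63.3%, 66.0% and 61.3% in the OVA-induced mice and 62.6%, 62.6%, 60.8% and 62.6% in the DSE-treated mice (-12.3 points, adjusted p from limma = 0.0393). The DSE-treated mice lay within 2 points of each other here. The Tnfrsf1b window chr4:145222001-145223000 had 58.8%, 58.0%, 64.4% and 58.0% in DSE-treated mice, 11.8 points below saline mice (adjusted p from limma = 0.0374). Downstream of Tnfrsf25, the receptor of TL1A, the window chr4:152123501-152124500 had 71.4%, 72.2% and 68.0% in the saline mice, 61.9%, 61.9% and 65.2% in the OVA-induced mice and 59.7%, 61.9%, 58.7% and 61.5% in the DSE-treated mice (0.0429 by limma), a pooled difference of -9.61 points that stayed under the threshold of 10. Downstream of Tnfrsf19, the window chr14:60962001-60963000 had 91.1%, 88.5% and 88.0% in the saline mice, 85.0%, 85.4% and 85.8% in the OVA-induced mice and 80.9%, 82.0%, 83.4% and 84.5% in the DSE-treated mice (-6.43 points, 0.0432 by limma). The largest fall in Tnfrsf14, at the window upstream of its start, was 16.1 points with an adjusted p from limma of 0.0908, and that of the Tnfrsf8 window at chr4:145299001-145300000 was 15.6 points with 0.0666.

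Receptor windows that were higher in DSE-treated than in saline mice lay in less methylated sequence. Here too, the starting levels of windows that rise or fall follow in part from their choice by difference. In Ngfr, the neurotrophin receptor p75, the intronic window chr11:95576001-95577000 had 19.9%, 19.1% and 19.0% in the saline mice, 29.5%, 26.7% and 29.2% in the OVA-induced mice and 36.0%, 36.0%, 28.2% and 30.02% in the DSE-treated mice (13.5 points, adjusted p from limma = 0.0282). All DSE-treated mice were above all saline mice, and the OVA-induced mice overlapped the lower DSE-treated mice. Far into the gene body of Tnfrsf21, the intronic window chr17:43076501-43077500 had 44.8%, 43.4% and 43.9% in the saline mice, 50.7%, 53.4% and 56.3% in the OVA-induced mice and 54.9%, 54.1%, 59.0% and 54.6% in the DSE-treated mice (11.5 points, 0.0372 by limma), so that 1 gene held both a fall and a rise. At Tnfrsf13b, the exonic window chr11:61146501-61147500 had 33.4%, 32.6% and 34.97% in the saline mice, 36.2%, 47.6% and 40.2% in the OVA-induced mice and 43.6%, 44.6%, 45.8% and 44.6% in the DSE-treated mice (10.8 points, 0.0321 by limma), and it lies within 5 kb of Usp22. The Tnfrsf13c window of the first comparison differed by 10.2 points (0.0463 by limma) and the Tnfrsf10b window by 7.63 points (0.0401).

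Smaller shifts past limma's threshold lay in windows of low methylation. Upstream of Tnfrsf12a, the receptor of TWEAK, chr17:23678501-23679500 had 7.92%, 7.47% and 8.20% in the saline mice, 13.9%, 15.5% and 7.69% in the OVA-induced mice and 11.3%, 13.4%, 12.9% and 12.4% in the DSE-treated mice, with OVA mouse 3 in the range of the saline mice (4.53 points, 0.0316 by limma). At the promoter of Edar, chr10:58675501-58676500 had 10.7%, 9.06% and 10.5% in the saline mice, 10.9%, 14.0% and 11.9% in the OVA-induced mice and 13.9%, 15.3%, 14.3% and 15.8% in the DSE-treated mice (4.65 points, 0.0447 by limma), and the printed Edar promoter lies within it. In an exonic window of Tnfrsf25, chr4:152120001-152121000 had 1.72%, 0.804% and 1.13% in the saline mice, 2.07%, 2.63% and 0.832% in the OVA-induced mice and 2.85%, 2.73%, 4.67% and 2.51% in the DSE-treated mice (1.87 points, 0.0437 by limma). Downstream of Tnfrsf17, the plasma cell receptor BCMA, chr16:11323001-11324000 had 2.84%, 2.35% and 2.29% in the saline mice, 3.29%, 4.20% and 4.16% in the OVA-induced mice and 4.04%, 3.64%, 3.96% and 4.02% in the DSE-treated mice (1.43 points, 0.0400 by limma) and lies near Snx29. These 4 differences were below 10 points. Single mice moved some calls of the likelihood ratio test. Without saline mouse 3 or DSE mouse 2 the Tnfrsf13c window came to 9.35 and 8.998 points, without saline mouse 2 or DSE mouse 4 the Tnfsf12 window came to 9.998 and 9.96 points, and without saline mouse 3, DSE mouse 2 or DSE mouse 4 the Tnfrsf25 window at chr4:152123501-152124500 passed the thresholds.

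**Figure D5:**
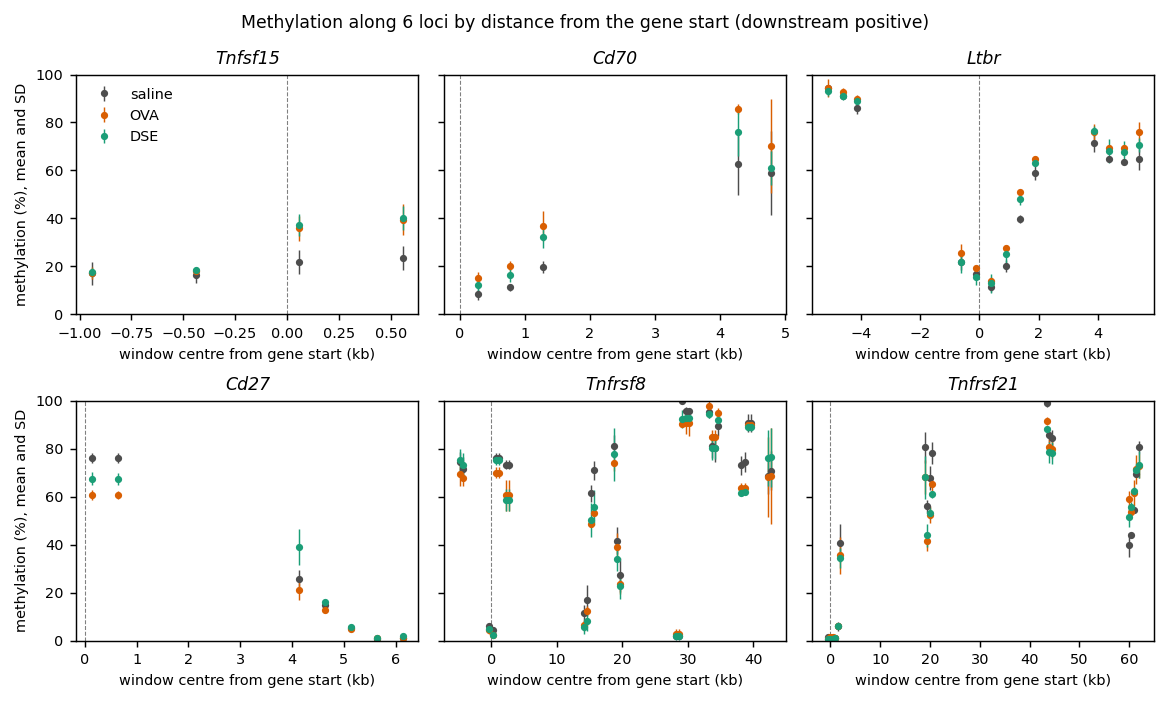
Each panel shows the windows of 1 locus by the distance of the window centre from the gene start in kb, with the methylation in percent as mean and SD of the mice of a group. The groups separate on the downstream side of the Tnfsf15 start, on the rising edge of the Cd70 and Ltbr promoters (19.8%, 36.8% and 32.3% in saline, OVA and DSE mice in the most affected Cd70 window), beside the Cd27 promoter and in parts of the gene bodies of Tnfrsf8 and Tnfrsf21.

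Ligand and receptor pairs are set side by side. For Cd70 and Cd27 the gene test difference of OVA from saline mice was 1.07 and -0.24, for Tnfsf15 and Tnfrsf25 0.58 and 0.11. For Tnfsf14 it was -0.59, with -0.36 for Tnfrsf14 and 0.40 for Ltbr. For Tnfsf8 and Tnfrsf8 it was -0.22 and -0.30, for Tnfsf9 and Tnfrsf9 0.31 and 0.06, for Tnfsf10 and Tnfrsf10b 0.20 and 0.09, and for Tnfsf12 and Tnfrsf12a 0.17 and 0.05. The B cell ligands Tnfsf13 and Tnfsf13b had 0.13 and 0.03, and their receptors Tnfrsf13b, Tnfrsf13c and Tnfrsf17 had -0.07, 0.17 and 0.01. Tnfsf11 had 0.09, its receptor Tnfrsf11a 0.15 and the decoy Tnfrsf11b -0.28, and Fasl and Fas had -0.32 and 0.29. Of these, only Cd70, Tnfsf15, Tnfsf14 and Ltbr passed. The mean M-value and the level can differ in sign. Despite positive differences in M-value, the level was 36.1% in saline and 34.9% in OVA-induced mice at Tnfrsf10b, and 13.2% and 12.5% at Tnfsf13b. Tnfsf4 and Tnfrsf4, the OX40 pair of T cells, had 2 windows each and were not in the gene test. Their loci had 17.3%, 20.8% and 25.7% in saline and 15.2%, 21.5% and 21.7% in OVA-induced mice for Tnfsf4, and 38.1%, 32.7% and 39.9% and 29.6%, 37.7% and 35.5% for Tnfrsf4, which overlapped. Tnfrsf18 had -0.10 and its ligand Tnfsf18 no window. The remaining receptors outside these pairs, Tnfrsf1a, Tnfrsf1b, Tnfrsf19, Tnfrsf21, Cd40, Ngfr and Edar, ranged from -0.22 at Tnfrsf1b to 0.23 at Edar, and none passed. Cd40, the B cell receptor for T cell help, had no window past the thresholds in any comparison. The median gene test difference over the 33 members was 0.09, 0.03 and 0.10 in the order of the comparisons above, against 0.09, 0.02 and 0.11 over all genes.

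Of 22 genes of the signalling chain downstream, such as the TRAF adaptors, Ripk1, Casp8 and the IκB kinases, the gene test called 0 in OVA against saline mice. Over all genes, 4.24% were called higher and 1.61% lower there. In DSE against OVA mice it also called 0, against 0.125% of all genes higher and 0.0139% lower. In DSE against saline mice the necroptosis kinase Ripk3 was higher (0.42 ± 0.08, adjusted p from limma = 0.0136) and the apoptosis genes Casp8 (-0.41 ± 0.10, 0.0284) and Bid (-0.28 ± 0.08, 0.0388) were lower. That is 1 higher and 2 lower of 22, against 10.4% and 2.41% of all genes. Of 421 windows of this chain 7 were higher (1.66%) and 24 lower (5.70%) in OVA-induced mice, against 4.75% and 2.56% over the table. Of 10 other superfamily genes outside the members, 9 could be tested. Tnf and Ltb, both genes of the lymphotoxin cluster, were lower in OVA-induced mice, against 1.61% of all genes. The Ltb locus had 42.9%, 44.5% and 40.3% in saline mice, 35.6%, 33.0% and 32.2% in OVA-induced mice and 35.4%, 33.5%, 34.9% and 33.5% in DSE-treated mice (-0.59 ± 0.09 for OVA from saline mice, adjusted p from limma = 0.0114). The Tnf locus had 44.6%, 41.6% and 40.0%, 37.3%, 35.05% and 34.1% and 36.2%, 35.5%, 38.2% and 34.7% in the same order (-0.50 ± 0.12, 0.0416). Windows of these genes were lower in 16 of 99 cases (16.2%) and higher in 0, against 2.56% and 4.75% over the table, and neighbouring genes of the cluster share some of them. In DSE against saline mice Tnf, Lta, Ltb and Tnfrsf26 were lower, which is 4 of 9, against 2.41% of all genes.

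Some cell type markers moved with the groups as well. The promoter windows of 12 of 19 leukocyte markers averaged 57.3% to 60.3% in saline mice, 52.2% to 55.2% in OVA-induced mice and 53.2% to 54.5% in DSE-treated mice. In the gene test of OVA against saline mice, 4.24% of all genes were called higher and 1.61% lower. Of 16 leukocyte loci 3 were called. Ptprc (-0.60 ± 0.10), Epx (-0.37 ± 0.09) and Prg2 (-0.75 ± 0.12) were lower in OVA-induced than in saline mice. The endothelial loci Pecam1 (0.38 ± 0.09) and Tek (0.75 ± 0.12) were higher, which is 2 of 4 endothelial loci. Of 9 epithelial loci 1 was called, Nkx2-1, which was higher (0.52 ± 0.08). The others ranged from -0.03 at Sftpa1 to 0.42 at Scgb1a1, and the epithelial promoter windows averaged 31.8% ± 0.916 in saline and 30.8% ± 0.354 in OVA-induced mice. None of 16 leukocyte, 9 epithelial and 4 endothelial marker loci was called in DSE against OVA mice. Of all genes, 0.125% were called higher and 0.0139% lower there, so 0 among so few loci says little about them. The part of cell composition in the differences at the TNF superfamily was not tested.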

How the data were processed

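Lung DNA of 10 mice was captured (SureSelect Methyl-seq), bisulfite-converted and sequenced. Per the labels, the submitters' notes name cutadapt 1.10, Bismark 0.19.0, methylKit 1.0.0 and mm10, and the study's methods give other versions. The authors deposited counts of methylated and unmethylated calls per mouse in windows of 1000 bp every 500 bp, unnormalized, and no window had fewer than 10 calls in a mouse. Deposited columns of all 10 mice were used. The labels number the replicates without naming animals, and p-values over mice measure the spread between these samples.

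Windows needed 20 calls in at least 2 mice per group. The window test was a likelihood ratio test of pooled calls in a logistic model without overdispersion, with Benjamini-Hochberg adjustment over all windows. The M-value was log2((methylated + 1)/(unmethylated + 1)), averaged per gene over at least 3 windows with 20 calls in every mouse for the gene test (limma 3.58.1 in R 4.3.3, 28830 genes, adjusted p under 0.05, all 10 mice). Single windows had exact permutation tests, two-sided, whose smallest p is 0.1 for 3 against 3 mice. The tests were checked on simulated calls, with required outcomes set for counting error alone. Calls with a spread between mice were drawn too, but no outcome was required of them. The required outcomes therefore do not cover false calls from that spread. Windows were named by fixed rules: per comparison the 6 largest differences past the thresholds without overlap of mice, every window past limma's threshold with 2 groups, each taken once per run of overlapping windows, the loci called by the gene test, the 5 lowest and 5 highest promoter windows, and ligand and receptor pairs. Other windows in the text were chosen after their values were seen. The members and lists were chosen with earlier results of these data known.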

Additional observations from a re-analysis of the deposited data

Results flagged for a closer look

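In the groups of 4 DSE-treated mice, a mouse was singled out when its gap to the nearest mouse, divided by the range of the group, exceeded Dixon's 95% critical value, which chance exceeds in about 1 of 20 groups. The 62 windows and loci examined gave 7 such values, and 4 of the 7 belonged to DSE mouse 3. DSE mouse 4 had 27.9% in the exonic Cd27 window and 26.0% over the Cd27 locus, below the other DSE-treated mice. DSE mouse 3 had 59.0% in the Tnfrsf21 window at chr17:43076501-43077500, 64.4% in the exonic Tnfrsf1b window and 4.67% in the exonic Tnfrsf25 window, above the others, and 60.8% in the Tnfrsf8 window at chr4:145276001-145277000, below the others. DSE mouse 1 had 42.1% over the Ngfr locus, above the others. The loci and windows overlap in part, so these values are not independent of each other.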

How the results depend on the processing

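The 37, 4 and 39 member windows past the thresholds in OVA against saline, DSE against OVA and DSE against saline mice became 0, 0 and 0 in the test with overdispersion and in limma at an adjusted p of 0.01. They became 1, 0 and 0 at a difference of 20 points and 22, 0 and 19 with non-overlapping windows, by construction of fewer windows, and 19, 0 and 23 in limma with 3 groups and the same 10 points, which was chosen after seeing the data. A minimum of 50 calls left 2 of the 4 windows in DSE against OVA mice. Leaving out 1 mouse gave 30 to 45, 1 to 4 and 33 to 45 windows. The gene test's 4, 0 and 2 loci ranged from 0 to 4, from 0 to 0 and from 1 to 3 when 1 mouse was left out, with Cd40 added in DSE against saline mice without OVA mouse 3. Non-overlapping windows gave 1 locus (Ltbr) in OVA against saline mice and 0 in DSE against saline mice, since Cd70, Tnfsf14 and Tnfsf15 then had too few windows, and a fit of only the 2 groups gave 1 (Cd70) in OVA against saline mice. In OVA against saline mice, pooled calls of a gene gave 4 loci but without Ltbr (adjusted p = 0.147) and with Cd27, gene spans alone gave 4 without Tnfsf14, which then had too few windows, and with Cd27, and a pseudocount of 0.5 gave 3 without Tnfsf14 (adjusted p = 0.0529). Pooled calls gave 4 loci in DSE against OVA mice, all higher (Tnfsf11, Tnfrsf17, Tnfrsf19 and Tnfrsf21), although the gene test differences of Tnfrsf19 and Tnfrsf21 as reported were -0.01 and -0.18, and 9 in DSE against saline mice, and a minimum of 50 calls gave 4 in the latter. The cause was not tested.

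Replicate numbers did not pair the mice (correlation of same-numbered mice -0.0190 to 0.0369 over 9 pairs, others -0.0339 to 0.0255). The replicate block gave 36, 3 and 37 windows, and the gene test with the block gave 1 locus (Cd70) in OVA against saline, 0 in DSE against OVA and 0 in DSE against saline mice. With it, the gene test gave adjusted p-values of 0.0653, 0.0608 and 0.0581 for Tnfsf14, Tnfsf15 and Ltbr in OVA against saline mice and of 0.0567 and 0.0631 for Tnfsf15 and Cd70 in DSE against saline mice, and the Fas window missed the threshold in DSE against OVA mice (adjusted p = 0.0412).

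The mean levels, 34.9%, 35.8% and 36.5% for ligand loci and 43.3%, 43.1% and 43.3% for receptor loci in saline, OVA and DSE mice, were 29.6%, 29.9% and 31.3% and 31.2%, 30.5% and 32.2% with pooled calls. They were 29.2%, 30.6% and 31.1% and 41.5%, 41.4% and 41.7% for gene spans alone. A minimum of 50 calls gave 42.3%, 41.7% and 42.1% for receptor loci. These alternatives were added after seeing the data. With 3 or 4 mice per group, differences of a few points at low coverage were not detectable.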
